A study of Mus musculus with 8 samples.

Results

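The constant segments of the T cell receptor (TCR) loci were examined in OT-I CD8+ T cells grown with GC7 or without it. The 8 constant segments are Trac (alpha chain), Trbc1 and Trbc2 (beta chain), Trdc (delta chain) and Tcrg-C1, Tcrg-C2, Tcrg-C3 and Tcrg-C4 (gamma chain), and they are 8 of the 55536 genes counted. They were found by symbol among the genes annotated as TCR constant segments in GRCm38 (Ensembl 96), and the group was chosen by measured values, because the difference between GC7 and Mock libraries in these same data was known when it was drawn up. Differences of the constant segments between GC7 and Mock are therefore given as a description, with no p-value, and counts of segments past a threshold are not support.

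Both groups shared 1 genotype, in which the line C57BL/6-Tg(TcraTcrb)1100Mjb/J supplies the OT-1 receptor and the allele of B6.129S7-Rag1tm1Mom/J removes Rag1 (Rag-1KO), with CD45.1 or CD45.2 as congenic allele. They came from lymph nodes of mice of strain C57BL/6 aged 5 to 12 weeks and are labelled as CD8 T cells. All cultures received 100 nM of the peptide SIINFEKL for 2 days and then 20 ng/mL recombinant human IL-2 for 2 days. During the IL-2 phase the GC7 group (4 libraries) also received 10 µM GC7, an inhibitor of deoxyhypusine synthase, the enzyme that begins the hypusine modification of the translation factor eIF5a, and the Mock group (4 libraries) received the acetic acid vehicle. The comparison asks which transcripts differ between cells grown with GC7 and with its vehicle, and effects of GC7 that do not pass through eIF5a cannot be told apart from those that do. The transgene is read at the endogenous alpha and beta segments in these counts, so transcripts of the transgene and of the endogenous loci cannot be told apart. The methods call the 4 libraries of a group biological replicates without saying whether they came from separate animals.

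A TCR chain is encoded by a V segment, in beta and delta a D segment, and a J segment joined by recombination and then spliced to a constant segment, which encodes the part of the receptor anchored in the membrane. CD8 T cells that recognise peptide use alpha paired with beta, whereas gamma-delta T cells use gamma paired with delta. The Rag1 and Rag2 proteins start the recombination, so a Rag1-deficient T cell has no rearranged endogenous TCR locus and depends on its transgene, but an unrearranged locus can still be transcribed into germline RNA. The delta locus lies inside the alpha locus. In developing lymphocytes the gamma locus is opened by signals from the IL-7 receptor through STAT5.

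The beta and gamma constant segments are near copies of each other, and their coding sequences show where reads of the coding part can be assigned. Their annotated exons are longer (749 bases in Trbc1 and 924 in Tcrg-C1), and the bases outside the coding part were not compared. Trbc1 and Trbc2 shared 495 of 518 coding bases (95.6%), with 1 difference over the 375 bases of the first coding exon and 15 over the 107 bases of the third exon. The longest stretch without a difference was 259 bases. A stretch of the first coding exon (coding bases 241 to 300) shows its lone difference, and the third coding exon, with 15 differences, holds more of them than any other coding exon. Sequences are from the GENCODE transcripts of GRCm38, and capitals mark the bases that differ.
Trbc1, the first coding exon, chr6:41538458-41538517 (+): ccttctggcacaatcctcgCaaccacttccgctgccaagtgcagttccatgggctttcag
Trbc2, the first coding exon, chr6:41546970-41547029 (+): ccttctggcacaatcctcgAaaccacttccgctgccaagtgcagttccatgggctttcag
Trbc1, the third coding exon, chr6:41539229-41539335 (+): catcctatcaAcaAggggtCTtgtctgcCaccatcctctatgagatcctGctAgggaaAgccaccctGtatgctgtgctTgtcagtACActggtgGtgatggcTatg
Trbc2, the third coding exon, chr6:41547772-41547878 (+): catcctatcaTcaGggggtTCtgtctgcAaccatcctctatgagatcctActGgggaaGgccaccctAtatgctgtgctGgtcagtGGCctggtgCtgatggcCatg

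Of the gamma segments, Tcrg-C1 was 97.4% identical to Tcrg-C2, 96.8% to Tcrg-C3 and 78.7% to Tcrg-C4 over their aligned coding bases. The longest identical stretch was 94 bases between Tcrg-C1 and Tcrg-C3 and 29 bases between Tcrg-C1 and Tcrg-C4. The first 120 coding bases of each are shown because they separate Tcrg-C4 from the rest, with the 17 positions at which any of the 4 differs in capitals.
Tcrg-C1, chr13:19214103-19214222 (+): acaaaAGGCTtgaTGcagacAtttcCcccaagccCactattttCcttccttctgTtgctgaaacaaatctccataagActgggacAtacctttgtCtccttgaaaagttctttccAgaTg
Tcrg-C2, chr13:19307432-19307551 (-): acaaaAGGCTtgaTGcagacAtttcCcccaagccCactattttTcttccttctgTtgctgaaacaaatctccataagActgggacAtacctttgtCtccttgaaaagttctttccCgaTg
Tcrg-C3, chr13:19260885-19261004 (+): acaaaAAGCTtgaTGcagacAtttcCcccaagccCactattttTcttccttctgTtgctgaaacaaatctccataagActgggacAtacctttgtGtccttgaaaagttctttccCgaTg
Tcrg-C4, chr13:19344558-19344677 (+): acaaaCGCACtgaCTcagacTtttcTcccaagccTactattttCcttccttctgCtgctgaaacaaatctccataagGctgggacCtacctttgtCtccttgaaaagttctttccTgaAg

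The counts themselves tell how reads with several matching positions were treated. Of 13 pairs of V segments with identical transcripts and any counts, 9 had equal counts in all 8 libraries and no pair differed by more than 2 counts in a library. Such reads were thus counted at every copy, so Trbc1 and Trbc2 share reads from their first exon and are not independent measurements. Tcrg-C3 received few reads in this way, since it had at most 3 counts in Mock libraries where its near copy Tcrg-C1 had 404 to 596. How many reads Tcrg-C1 and Tcrg-C2 share was not tested.

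Mock libraries had 20045041 to 25284730 counts in total, and those of the GC7 group 17528776 to 23449164. Levels are CPM (counts of a gene scaled to a common library size) with library sizes adjusted by the trimmed mean of M values (TMM), and the 11189 genes above 3 CPM in 4 or more libraries were tested. Mock replicate 2 stood apart from the other Mock libraries in several genes. The label of CD8 T cell was borne out by Cd8a at 703 ± 27.6 CPM in Mock and 978 ± 30.5 in GC7 (SD, n = 4), while Cd4, the co-receptor of helper cells, had at most 9 counts in a library. Of 5 B cell markers, Ms4a1 and Pax5 were at 0 in all 8 libraries. Cd79b of the same list passed the filter, at 7.49 ± 1.45 CPM in Mock and 4.42 ± 0.485 in GC7.

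Trac, the constant segment of the alpha chain (ENSMUSG00000076928, chr14:54220521-54224206), was lower in GC7. Its level was 229, 281, 233 and 236 CPM in Mock replicates 1 to 4 and 181, 192, 184 and 194 CPM in GC7 replicates 1 to 4. Every GC7 library lay below every Mock library, and Mock replicate 2 was the highest. The means were 245 ± 24.6 and 188 ± 6.66 CPM (SD, n = 4), a log2 fold change of -0.38 (SE 0.0733). Leaving out any 1 library kept this value between -0.42 and -0.30.

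The beta segments differed in opposite directions. Trbc1 (ENSMUSG00000076490, chr6:41538218-41539881), the constant segment behind the first D and J cluster, had 291, 379, 323 and 318 CPM in Mock and 248, 244, 300 and 272 CPM in GC7. The groups overlapped through GC7 replicate 3 and Mock replicate 1. The means were 328 ± 37.0 and 266 ± 26.1 CPM, with a log2 fold change of -0.30 (SE 0.0907).

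Trbc2 (ENSMUSG00000076498, chr6:41546730-41548352), behind the second D and J cluster, had 444, 598, 457 and 456 CPM in Mock and 541, 549, 598 and 572 CPM in GC7. Apart from Mock replicate 2, every Mock library lay below every GC7 library. The means were 489 ± 72.9 and 565 ± 25.8 CPM, with a log2 fold change of 0.21 (SE 0.0934), and of 0.32 without Mock replicate 2. With the counts of both beta segments added, the log2 fold change was 0.03, and this sum counts shared reads at each segment.

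Trdc, the constant segment of the delta chain (ENSMUSG00000104876, chr14:54142851-54148868), showed almost the same level in both groups. It had 19.0, 18.3, 16.7 and 17.0 CPM in Mock and 17.2, 18.1, 16.4 and 18.0 CPM in GC7. The groups overlapped over most of their range. The means were 17.8 ± 1.05 and 17.4 ± 0.827 CPM and the log2 fold change was -0.02 (SE 0.0776), which became 0.07 when library totals replaced the TMM factors. Trdc overlaps the antisense gene Gm43434 and the segment Trdv5, and the strand setting of the counting is not stated, so reads of the antisense gene cannot be told apart from those of Trdc.

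The 3 expressed gamma segments were several-fold lower in GC7. Tcrg-C1 (ENSMUSG00000076749, chr13:19214103-19217024) had 22.4, 25.3, 20.8 and 20.2 CPM in Mock and 1.31, 1.82, 1.62 and 1.92 CPM in GC7. The highest GC7 library was far below the lowest Mock library. The means were 22.2 ± 2.29 and 1.67 ± 0.268 CPM, a log2 fold change of -3.72 (SE 0.133), or 13.2-fold lower in GC7.

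Tcrg-C4 (ENSMUSG00000076757, chr13:19344558-19352756), the segment least like the others in sequence, had the largest difference among the constant segments. It had 6.41, 8.21, 6.57 and 6.82 CPM in Mock and 0.195, 0.455, 0.279 and 0.292 CPM in GC7. In counts this was 125, 193, 141 and 136 in Mock against 4, 10, 5 and 7 in GC7, so the GC7 level rests on 26 counts in all. The log2 fold change was -4.48 (SE 0.212), or 22.4-fold lower in GC7, and it ranged from -4.75 to -4.33 with 1 library left out.

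Tcrg-C2 (ENSMUSG00000076752, chr13:19304649-19307551), encoded on the opposite strand from the other gamma segments, had the smallest difference of the 3. Its level was 6.10, 9.78, 7.50 and 7.62 CPM in Mock and 1.95, 2.05, 0.670 and 1.21 CPM in GC7. The groups did not overlap, but the GC7 libraries varied more among themselves than for Tcrg-C1, from 12 counts in GC7 replicate 3 to 45 in GC7 replicate 2. The log2 fold change was -2.38 (SE 0.253), or 5.21-fold lower in GC7. With the near copies Tcrg-C1, Tcrg-C2 and Tcrg-C3 added, the log2 fold change was -3.25.

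Tcrg-C3 (ENSMUSG00000091682, chr13:19260884-19263528) had 1, 2, 3 and 1 counts in Mock and 0 counts in every GC7 library. A count of 0 in a library allows up to 3 counts there, so no fold is given. The values rest on 7 counts in all Mock libraries together, and whether the segment differs was not tested. Summed, the 4 gamma segments had 35.0, 43.4, 35.0 and 34.7 CPM in Mock and 3.46, 4.32, 2.57 and 3.43 CPM in GC7. These are bulk libraries, so fewer cells carrying gamma transcripts and less gamma RNA per cell cannot be told apart.

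**Figure D1:**
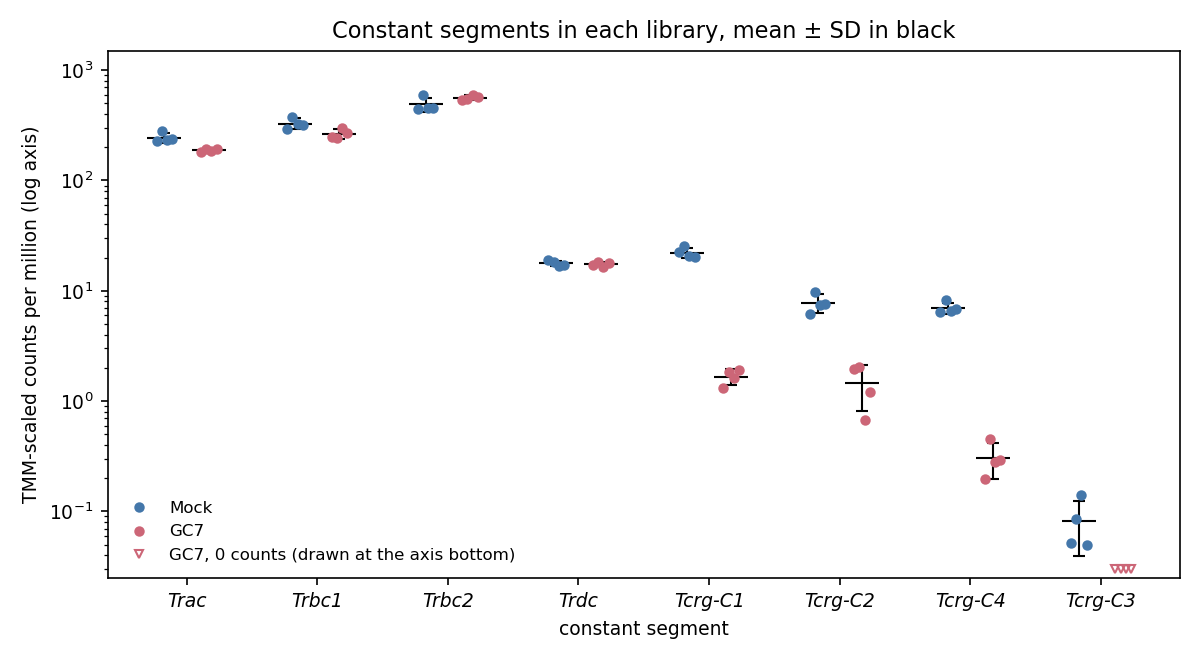
TMM-scaled CPM of the 8 constant segments in each Mock (blue) and GC7 (red) library on a log axis, with the mean ± SD of 4 libraries in black and libraries at 0 counts as open triangles at the axis bottom. The gamma segments Tcrg-C1, Tcrg-C2 and Tcrg-C4 separate the groups by 13.2-fold, 5.21-fold and 22.4-fold, whereas the alpha, beta and delta segments differ by 1.30-fold or less.

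Of the 8 constant segments, 7 passed the filter on low values, and Tcrg-C1, Tcrg-C2 and Tcrg-C4 passed it only through their Mock libraries, so these 3 had to differ once they passed. In edgeR 4 of the 8 were lower at the threshold of 0.01 (Trac and these 3 gamma segments) and 0 were higher, against 23.5% and 23.0% of all tested genes. At more than 2-fold 3 were lower and 0 higher, against 5.31% and 3.17% of tested genes. Every GC7 library was below every Mock library for 5 segments, Tcrg-C3 with its few counts included, and above for 0 (27.5% and 28.1% of tested genes). These shares are given as background, and nothing is read from them, because the same contrast chose the group. Among all tested genes 35 had a lower log2 fold change than Tcrg-C1, 128 a lower one than Tcrg-C2 and 17 a lower one than Tcrg-C4, and the median of all tested genes was 0.018.

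**Figure D2:**
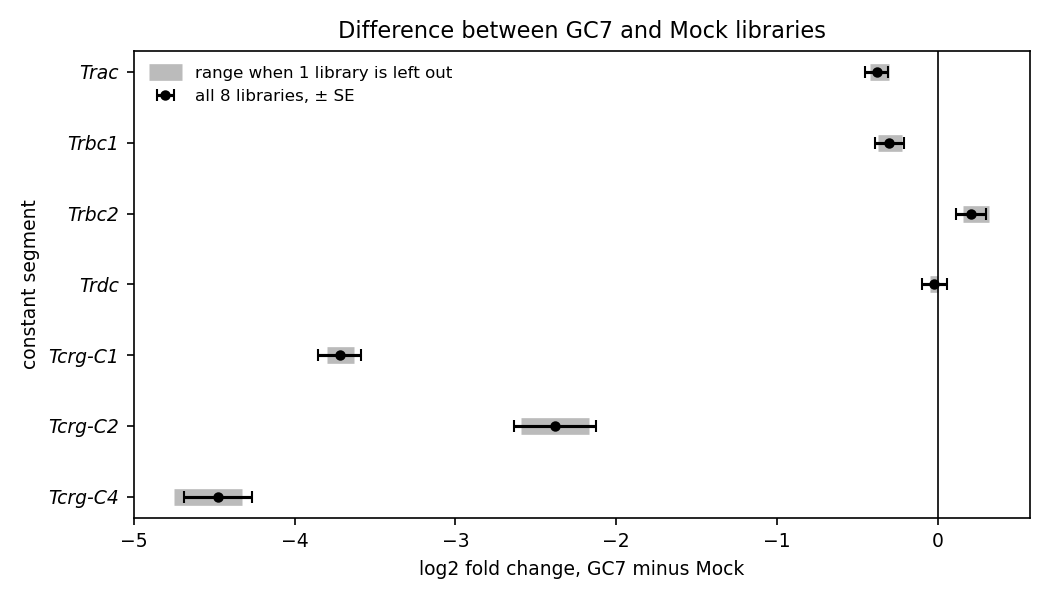
Log2 fold change (GC7 minus Mock) of the 7 constant segments that passed the filter, with the SE of the edgeR fit as bars and, in grey, the range of the value when each of the 8 libraries is left out in turn. The gamma segments lie between -4.48 and -2.38, and the other segments between -0.38 and 0.21.

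Per kilobase of merged exon, which divides each level by annotated length, Trbc2 was the most abundant in Mock at 706 ± 105 CPM per kb. Reads counted at both beta segments raise the values of Trbc1 and Trbc2. Trbc1 followed at 438 ± 49.3, Trac at 262 ± 26.3 and Tcrg-C1 at 24.0 ± 2.48 CPM per kb. Below them lay Tcrg-C2 at 8.48 ± 1.66, Tcrg-C4 at 7.11 ± 0.833, Trdc at 4.59 ± 0.272 and Tcrg-C3 at 0.126 ± 0.0647 CPM per kb. Tcrg-C2 and Tcrg-C4 overlapped and so have no order, and every other pair of neighbours was separated in all 4 Mock libraries. The merged exons of Trdc span 3865 bases, against 650 to 985 in the other segments. Its place below Tcrg-C2 and Tcrg-C4 comes from that length, since its CPM was above theirs.

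In GC7 the first 3 places were unchanged, with Trbc2 at 817 ± 37.3, Trbc1 at 355 ± 34.9 and Trac at 201 ± 7.13 CPM per kb. Trdc, at 4.51 ± 0.214 CPM per kb, then stood above Tcrg-C1 (1.81 ± 0.290), Tcrg-C2 (1.61 ± 0.712) and Tcrg-C4 (0.310 ± 0.111). Tcrg-C1 and Tcrg-C2 overlapped in GC7. The level of Trac relative to Trbc2 per kilobase was 0.381, 0.348, 0.377 and 0.382 in Mock and 0.247, 0.259, 0.227 and 0.251 in GC7, with no overlap. Reads of Trbc1 that are also counted at Trbc2 lower this ratio in every library.

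The shares of counts within a chain show which copy carries it. Trbc1 made up 39.6%, 38.8%, 41.4% and 41.1% of the beta counts in Mock and 31.4%, 30.8%, 33.4% and 32.2% in GC7. The groups did not overlap, and the 95% Wilson intervals of single libraries reached down to 38.2% in Mock and up to 34.15% in GC7. Reads counted at both beta segments move this share toward equality in every library. Among the gamma counts, Tcrg-C4 made up 18.9% ± 0.538 in Mock and 8.89% ± 2.40 in GC7. Tcrg-C2 made up 17.4%, 22.5%, 21.4% and 21.9% in Mock and 56.3%, 47.4%, 26.1% and 35.4% in GC7, and neither share overlapped between groups. The share of Tcrg-C1 was 60.0% ± 2.74 in Mock and 49.8% ± 11.7 in GC7, and its groups overlapped. The GC7 shares at the gamma locus rest on 46 to 95 counts a library. For Tcrg-C2 in GC7 replicate 3, 12 of 46 counts gave 26.1% with an interval of 15.6% to 40.3%, which includes the Mock shares. Trdc made up 6.81% ± 0.644 of the counts of Trdc and Trac in Mock and 8.50% ± 0.235 in GC7, without overlap. No molecular identifiers are described for these reads, so intervals cover counting error only. They also treat each count as a separate read, which does not hold for reads counted at both beta segments.

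**Figure D3:**
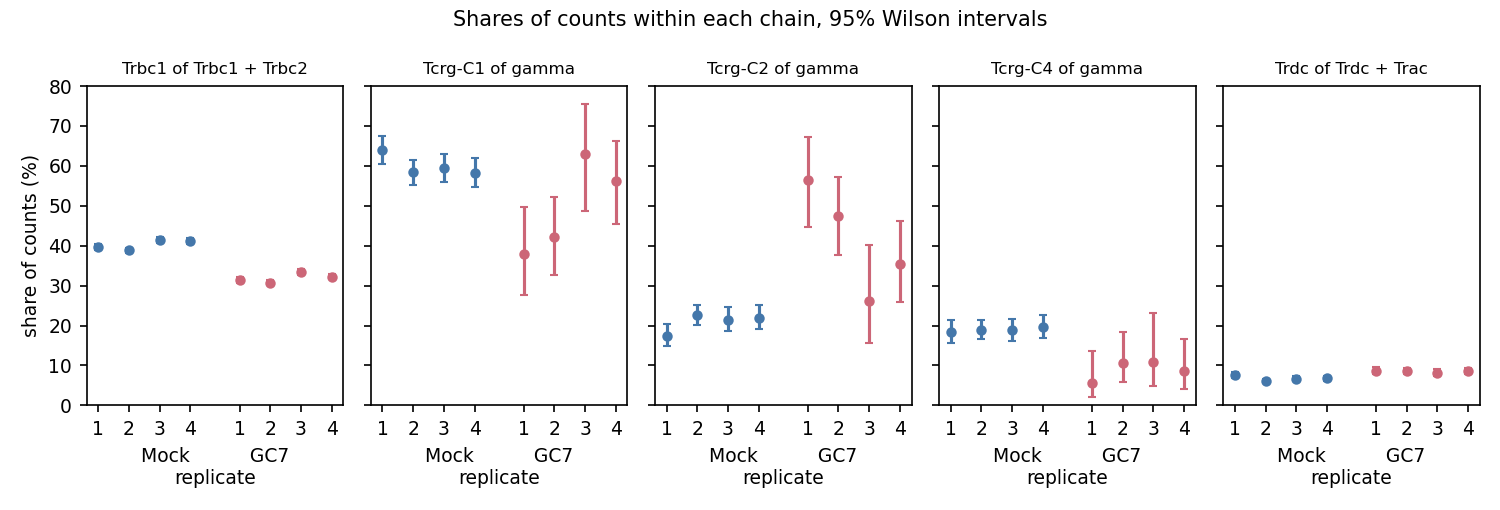
Share of counts (%) of 1 constant segment within its chain or locus in each Mock (blue) and GC7 (red) replicate, with 95% Wilson intervals. The share of Trbc1 lies between 38.8% and 41.4% in Mock and between 30.8% and 33.4% in GC7, and the gamma shares of GC7 libraries have wide intervals.

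The V, D and J segments of the same loci were not members of the group, and 262 of them were counted. Of these 189 had any counts and 15 passed the filter, of which 2 were lower and 2 higher in edgeR at the threshold of 0.01, none by more than 2-fold (23.5% and 23.0% of all tested genes were lower and higher). The 2 higher were beta segments and the 2 lower were a pair of alpha V segments with identical transcripts. Trbv12-1, of the V family used by the OT-I beta chain, had 42.7, 50.9, 42.0 and 44.5 CPM in Mock and 82.1, 73.4, 90.6 and 79.6 CPM in GC7. It rose by 0.85 on the log2 scale (SE 0.0827, edgeR adjusted p = 3.05e-06) and was higher in all 4 GC7 libraries. Relative to Trbc2, its counts were 0.0927 ± 0.00554 in Mock and 0.144 ± 0.00906 in GC7. Trbj2-1, a J segment of the second beta cluster, rose by 0.46 (SE 0.111, edgeR adjusted p = 0.00343), a call that was lost when any of Mock replicates 1, 3 or 4 or GC7 replicates 1 or 4 was left out (0.40 to 0.45).

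At the alpha locus, Trav14d-1, of the V family used by the OT-I alpha chain, and its identical copy Trav14n-1 had 13.0, 13.5, 12.3 and 13.2 CPM in Mock. In GC7 they had 9.93, 11.2, 9.93 and 10.7 CPM, all below Mock. The log2 fold change was -0.32 (SE 0.0855, edgeR adjusted p = 0.00688), and the call was lost when any library other than GC7 replicate 2 was left out (-0.34 to -0.29) and with a replicate block (-0.32), no filter (-0.32) or library totals (-0.22). The other 7 Trav14 segments had at most 36 counts in a library, Trbv12-2 at most 4 and Trbv12-3 was at 0. Traj58 lay close to the filter, at 3.59 to 6.38 CPM in Mock and 2.67 to 3.46 in GC7. Its Mock libraries alone were enough to pass the filter, which limits its p-value. It had a log2 fold change of -0.70 (SE 0.204, edgeR adjusted p = 0.0102). Traj58 passed the threshold without Mock replicate 1 or Mock replicate 3 (-0.82 each), with RLE factors, no filter, filterByExpr or DESeq2 (-0.71 each) and with a replicate block (-0.69). Traj49, under the filter, had 73, 90, 61 and 81 counts in Mock and 22, 25, 21 and 23 in GC7, whereas Trav6d-7, also under the filter, had 32, 47, 33 and 20 counts in Mock and 54, 67, 62 and 83 in GC7. All 60 alpha J segments summed to 21.3 ± 2.45 CPM in Mock and 13.9 ± 1.04 in GC7, without overlap.

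The J segments of the first beta cluster that were named, Trbj1-1 (-0.30), Trbj1-3 (-0.45) and Trbj1-5 (-0.50, all log2 fold changes), overlapped between groups and did not pass the threshold (edgeR adjusted p = 0.0546, 0.0448 and 0.0371). They passed it when GC7 replicate 3 was left out for Trbj1-1 (-0.44) and when Mock replicate 2 was left out for Trbj1-3 (-0.62) and Trbj1-5 (-0.66). All 3 passed it with no filter (-0.30, -0.45 and -0.50), and Trbj1-5 with a replicate block (-0.48). Trbd1 and the J segments of the first cluster together had 139 ± 23.1 CPM in Mock and 107 ± 18.3 in GC7, and those of the second cluster with Trbd2 had 31.5 ± 2.37 and 35.3 ± 2.28 CPM, with overlap in both. The 34 beta V segments other than Trbv12-1 summed to 0.544 ± 0.146 CPM in Mock and 0.413 ± 0.272 in GC7.

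No V or J segment of the gamma locus passed the filter, and 10 of 11 had counts. Trgj1 had 22, 47, 38 and 40 counts in Mock and 3, 2, 1 and 1 in GC7. Trgj2 had 31, 30, 15 and 18 against 7, 5, 1 and 7 counts, and Trgj4 had 14, 11, 15 and 15 against 1, 1, 0 and 1. Each of these J segments was lower in every GC7 library than in every Mock library. The V segment Tcrg-V5 had 10, 5, 9 and 10 counts in Mock and 0, 0, 1 and 0 in GC7, while Trgv2 had 3 to 6 against 1 to 3 and overlapped. The 4 gamma J segments summed to 3.50 ± 0.256 CPM in Mock and 0.347 ± 0.175 in GC7, and the 7 gamma V segments to 0.951 ± 0.116 and 0.101 ± 0.0842 CPM. The delta D and J segments had 1.11 ± 0.365 and 1.35 ± 0.511 CPM and overlapped, as Trdc did.

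**Figure D4:**
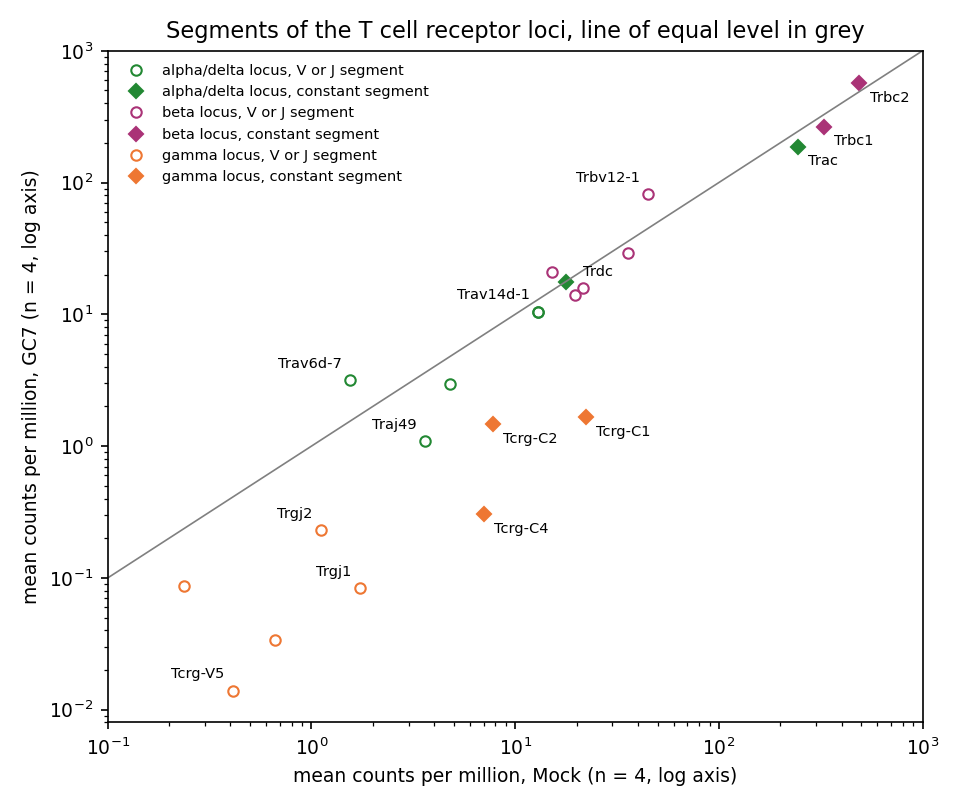
Mean CPM in GC7 against mean CPM in Mock (4 libraries each, both axes log) for the constant segments (diamonds, Tcrg-C3 left out because it is at 0 in GC7) and the 5 V or J segments with the highest level at each locus (open circles). The gamma segments of every kind lie below the line of equal level. The alpha, delta and beta segments lie nearer to it, with Traj49, Traj58, Trav6d-7 and Trbv12-1 the farthest from it.

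The gene and marker lists in this and the following paragraphs were chosen with earlier results of these data known. Their counts are given as a description and are not support. Of 10 partners of TCR signalling 9 were tested, and 6 were lower and 1 higher in edgeR, none by more than 2-fold. Of all tested genes 23.5% were lower and 23.0% higher. Their median log2 fold change was -0.27, beside 0.018 for all tested genes. Lck, the kinase that starts TCR signalling, fell by 0.64 (SE 0.0664, edgeR adjusted p = 5.45e-06) and Thy1, a surface glycoprotein of T cells, by 0.53 (SE 0.0821, edgeR adjusted p = 0.000146). Of the CD3 chains that carry the signal of every TCR, Cd3g fell by 0.37 (edgeR adjusted p = 0.00412), Cd247 by 0.26 (edgeR adjusted p = 0.00417) and Cd3e by 0.23 (edgeR adjusted p = 0.00789), while Cd3d had -0.27 and did not pass the threshold (edgeR adjusted p = 0.025). Cd3d had -0.16 without Mock replicate 2 and passed the threshold with no filter (-0.27). The call of Cd3e was lost when Mock replicate 3 or 4 or GC7 replicate 1, 2 or 3 was left out (-0.24 to -0.20), that of Cd3g without GC7 replicate 1, 2 or 4 (-0.39 to -0.35) and that of Cd247 without GC7 replicate 1 or 2 (-0.25 to -0.24). The calls of Cd3e, Cd3g and Cd247 were also lost with a replicate block (-0.23, -0.36 and -0.25) and with library totals (-0.13, -0.28 and -0.16), and that of Cd3e with no filter (-0.23). The co-receptor chain Cd8a rose by 0.48 (SE 0.0615, edgeR adjusted p = 3.43e-05), and its partner chain Cd8b1 had -0.18 (edgeR adjusted p = 0.0899), and -0.08 without Mock replicate 2.

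Of 12 rearrangement enzymes 9 were tested, and 3 were lower and 2 higher, which is near the shares of all tested genes (23.5% and 23.0%). Dntt, which adds bases at V(D)J joints, had 5.64, 7.10, 7.08 and 7.47 CPM in Mock and 1.17, 0.683, 1.28 and 0.919 CPM in GC7, with a log2 fold change of -2.76 (SE 0.186). Dntt passed the filter only through its Mock libraries, so it had to differ and no p-value is given. Polm, a polymerase of end joining, fell by 1.04 (edgeR adjusted p = 2.87e-07), and the end-joining gene Prkdc rose by 0.54 (edgeR adjusted p = 0.00193). Lig4, of the same pathway, had a log2 fold change of 0.83 and passed the filter only through its GC7 libraries, so it too had to differ. Rag1 had 10, 12, 8 and 5 counts in Mock and 25, 10, 28 and 25 in GC7, and Rag2 had 1 count in a single Mock library. Both were under the filter, and counts at Rag1 say nothing of a working protein in animals that carry the disrupted allele.

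Of 25 genes known to regulate the TCR loci 24 were tested, and 11 were lower and 2 higher, with a median log2 fold change of -0.24 (23.5%, 23.0% and 0.018 for all tested genes). Il7r, the IL-7 receptor chain, had 107 ± 16.5 CPM in GC7 and 135 ± 19.7 in Mock, with overlap (log2 fold change -0.34, edgeR adjusted p = 0.0276), and it passed the threshold without Mock replicate 2 (-0.42) or GC7 replicate 3 (-0.44) and with a replicate block or no filter (-0.34 each). Stat5b fell by 0.33 (edgeR adjusted p = 0.00193), a call lost with library totals (-0.24), whereas Stat5a had 0.17 (edgeR adjusted p = 0.0667), and 0.11 without Mock replicate 2. Il2rb, a chain of the IL-2 receptor, fell by 0.88 (edgeR adjusted p = 6.85e-05). The transcription factors Runx1 and Runx3 fell by 1.40 (edgeR adjusted p = 9.88e-06) and 0.97 (edgeR adjusted p = 2.99e-06). Tcf7, a factor of naive and memory T cells, went from 18.5 ± 2.11 to 58.9 ± 9.67 CPM and rose by 1.66 (edgeR adjusted p = 2.03e-07). Sox13, a factor of gamma-delta T cells, was under the filter with 1, 1, 1 and 2 counts in Mock and 23, 17, 14 and 15 in GC7.

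Of 10 known STAT5 targets all were tested, and 8 were lower and 1 higher, with a median log2 fold change of -0.43 (23.5%, 23.0% and 0.018 for all tested genes). Socs3, a feedback inhibitor of cytokine signalling, fell by 1.65 (edgeR adjusted p = 3.90e-07) and the cytokine gene Osm by 1.14 (edgeR adjusted p = 1.33e-07). The kinase gene Pim2 fell by 0.60 (edgeR adjusted p = 2.27e-05). Gzmb, which encodes a protease of cytotoxic granules, fell by 0.61 (edgeR adjusted p = 0.00448), a call lost without Mock replicate 1 (-0.58) or GC7 replicate 4 (-0.64) and with library totals (-0.51).

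Genes listed as markers of gamma-delta T cells differed in both directions. Of 15 gamma-delta T cell markers Trgv4 has no entry in the annotation, Il17a was at 0, and the 14 measured summed to 18.15 to 22.42 CPM in Mock and 9.88 to 12.4 in GC7. Only Maf and Cd163l1 passed the filter. Cd163l1, a scavenger receptor gene of gamma-delta T cells, had 3.69, 5.27, 4.43 and 3.26 CPM in Mock and 0.925, 0.956, 0.670 and 0.418 in GC7 with a log2 fold change of -2.50 (SE 0.247), and passed the filter only through Mock, so it had to differ. Maf, a factor that other T cells also express, fell by 0.69 (edgeR adjusted p = 0.000171). Blk, Il23r, Zbtb16, Tcrg-V4 and Tcrg-V6 had at most 9 counts in any library, and Sox13 had more counts in every GC7 library than in any Mock library. Trdv4 had 17, 23, 23 and 22 counts in Mock and 2, 8, 1 and 18 in GC7. A Rag1-deficient T cell has no rearranged gamma or delta locus, so these genes are not taken as a count of gamma-delta T cells. How they relate to the gamma result was not tested.

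B cell markers summed to 7.02 to 10.1 CPM in Mock and 4.63 to 5.93 in GC7 (1 of 5 tested, Cd79b, which fell by 0.76, edgeR adjusted p = 0.00101). NK cell markers summed to 2.38 to 3.13 and 2.46 to 3.60 CPM with 0 of 5 tested, and erythroid markers to 0.200 to 0.510 and 0.0455 to 0.726 CPM with 0 of 4 tested. Myeloid markers summed to 11.5 to 14.9 and 6.37 to 10.3 CPM with 1 of 6 tested and 0 called. The tested gene was Cd68, at 8.99 CPM in Mock and 7.41 in GC7 with overlap. Lyz2, Csf1r and Adgre1 of the same list had at most 7 counts in a library. Fcer1g, a receptor chain of myeloid cells, was under the filter with 67, 134, 65 and 52 counts in Mock and 11, 14, 12 and 22 in GC7. The CD4 T cell markers summed to 93.7 to 98.0 CPM in Mock and 76.7 to 85.8 in GC7. Of these 4 only Zbtb7b, which carried most of the sum, was tested, and it fell by 0.21 (edgeR adjusted p = 0.00789). The CD8 T cell markers summed to 8411 to 9968 CPM in Mock and 5662 to 7471 in GC7, and of these 10 genes 6 were lower and 2 higher (23.5% and 23.0% of all tested genes), among them Prf1, the perforin gene, which fell by 1.46 (edgeR adjusted p = 5.30e-06), and Cd2, an adhesion receptor gene, which fell by 0.61 (edgeR adjusted p = 1.44e-05), while Cd5, an inhibitory receptor gene, rose by 0.35 (edgeR adjusted p = 0.000142). Their part in the result was not tested.

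Of the 18 nearest tested protein-coding genes, 3 on each side of each locus, 2 were lower and 4 higher (23.5% and 23.0% of all tested genes), with a median log2 fold change of 0.06. Stard3nl, 4.92 kb beyond the gamma locus, had 0.10 (edgeR adjusted p = 0.308), with 0.16 without Mock replicate 2 and 0.04 without GC7 replicate 3, and Vps41, 311 kb before it, had 0.14 (edgeR adjusted p = 0.084). Gpr141, 397 kb beyond the gamma locus, was lower and fell by 1.35 (edgeR adjusted p = 3.86e-06). Dad1, 11.3 kb beyond the alpha/delta locus, had -0.19 (edgeR adjusted p = 0.0865), and -0.09 without Mock replicate 2, and Abhd4, 30.0 kb beyond it, rose by 1.02 (edgeR adjusted p = 6.28e-05). Sall2, before the alpha/delta locus, rose by 0.75 (edgeR adjusted p = 0.00151). Ephb6, 47.0 kb beyond the beta locus, had 0.32 (edgeR adjusted p = 0.0378), and on its other side Agk rose by 0.54 (edgeR adjusted p = 6.25e-05) and E330009J07Rik fell by 0.52 (edgeR adjusted p = 0.000644). Oxa1l rose by 0.27 (edgeR adjusted p = 0.00346), a call lost when Mock replicate 1 or 3 or GC7 replicate 1 or 4 was left out (0.23 to 0.26) and with a replicate block (0.27). Tox4, before the alpha/delta locus, had -0.15 (edgeR adjusted p = 0.0649) and passed the threshold without Mock replicate 2 (-0.20), and Rala, before the gamma locus, had -0.23 (edgeR adjusted p = 0.0239) and passed it without GC7 replicate 3 (-0.28).

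By the root mean square difference of log2 CPM over the 8 libraries, each gene set against its own Mock mean, Tcrg-C1 was most like Cyp2s1 (0.194), Acvrl1 (0.203) and H2-Q2 (0.214). Tcrg-C2 was most like Slc16a3 (0.224), Bnip3 (0.268) and Plxdc1 (0.280), and Tcrg-C4 was most like Smtnl2 (0.289), Plcd1 (0.309) and Tnfrsf8 (0.342). Trac was most like Ndufs3 (0.0227), Usf2 (0.0290) and Ndufa9 (0.0309), Trbc1 like Cdk2ap2 (0.0363), Vps28 (0.0372) and Atp6v1d (0.0373), Trbc2 like Tma7 (0.0266) and Snrpe (0.0367), and Trdc like Fbxo9 (0.0282), Lsm12 (0.0373) and Hsd17b12 (0.0384).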

How the data were processed

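RNA from 4 Mock and 4 GC7 samples was measured. Paired-end reads were trimmed (Cutadapt), aligned to GRCm38 (Ensembl 96; STAR) and counted (featureCounts) by the authors, who deposited raw counts, 1 table per library, without normalisation or pooling. Strand and multi-mapping settings are not given in the sources used here. All 55536 identifiers matched GENCODE annotation of the same build. Groups and replicate numbers were taken from the sample labels.

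The 11189 genes above 3 CPM in 4 or more libraries entered the quasi-likelihood test of edgeR (version 4.0.16, R version 4.3.3) with TMM factors, and p-values were adjusted by Benjamini-Hochberg over all of them, with a threshold of 0.01. Changes are log2 fold changes, GC7 minus Mock, with SE taken as the absolute log2 fold change over the square root of F. The test was tested on simulated data. Values are TMM-scaled CPM, mean ± SD. With 17528776 to 25284730 counts a library, 1 count is worth about as much as the lowest levels given for Tcrg-C3.

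The constant segments, the gene lists and the marker lists were chosen with earlier results of these data known. Named are all 8 constant segments, the 5 V, D or J segments with the highest mean CPM at each locus with all Trav14 and Trbv12 segments, the 4 called genes with the largest change in each list, a set of TCR, STAT5 and Rag genes, the 3 nearest tested genes on each side of each locus, and the 3 genes most like each tested segment. Others were named after their values were seen, and 2 genes that the rule or a list holds are not reported here. Alternatives were RLE factors, library totals, no filter, filterByExpr, DESeq2 (version 1.42.0), a replicate block, near-identical segments summed, other denominators for shares, and each library left out in turn. Sequences were compared with Biopython (version 1.88).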

Additional observations from a re-analysis of the deposited data

Results flagged for a closer look

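A library was flagged by Dixon's ratio at the 95% level, which divides the distance between an extreme library and its neighbour by the range of the 4 libraries of the group. Among 112 groups of 4 libraries 13 were flagged, and chance flags about 5% of groups. Mock replicate 2 was the library in 12 of the 13.

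Trac in Mock replicate 2 was the highest Mock library at 281 CPM against 229 to 236 in the others (gap over range 0.867), and Trbc2 was the highest there at 598 CPM against 444 to 457 (0.913). Trbj2-1, a J segment of the second beta cluster, was also highest there at 18.8 CPM against 13.8 to 14.3 (0.894). The partners Cd3g (754 CPM against 572 to 579, 0.960), Cd8b1 (418 CPM against 321 to 323, 0.974) and Thy1 (1769 CPM against 1578 to 1598, 0.894) and the STAT5 target Pim2 (426 CPM against 374 to 377, 0.941) were highest in the same library.

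Among the genes beside the loci, Rala (61.0 CPM against 50.9 to 52.0, 0.889) and Stard3nl (38.1 CPM against 32.3 to 33.2, 0.841) were highest in Mock replicate 2. Casp2 (57.1 CPM against 65.8 to 67.5, 0.833), E330009J07Rik (101 CPM against 126 to 131, 0.838) and Tox4 (104 CPM against 119 to 119, 0.972) were lowest there. Rala was also highest in GC7 replicate 3 among GC7 libraries, at 50.9 CPM against 44.0 to 44.8 (0.877). No gamma segment was among the flagged values. The cause was not tested.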

How the results depend on the processing

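All 7 constant segments that passed the filter kept their direction under RLE factors, no filter, filterByExpr, DESeq2 and the replicate block. Trdc changed sign, from -0.02 to 0.07 with library totals, and to 0.00 without Mock replicate 1 or without GC7 replicate 3 (range -0.05 to 0.00 with 1 library left out), and library totals moved the median of all tested genes from 0.018 to 0.112. Summing near-identical segments gave 0.03 for Trbc1 and for Trbc2, where Trbc1 thus changed sign, and -3.25 for Tcrg-C1 and Tcrg-C2. With 1 library left out, the number of segments below 0 was 5 to 6. With library totals as denominator the log2 ratios of GC7 to Mock were -0.21 for Trbc1, -3.64 for Tcrg-C1, -2.30 for Tcrg-C2 (opposite to its share of gamma counts), -4.42 for Tcrg-C4 and 0.07 for Trdc. Among genes outside the group, library totals turned Gstk1 to 0.06, Casp2 to 0.03 and Elmo1 to 0.01, and Gstk1 was -0.13 to 0.04 with 1 library left out. The cause was not tested.

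Genes called by edgeR numbered 5214, and 4410 to 5704 with 1 library left out. Those more than 2-fold lower went from 594 to 1189 with no filter and 1013 with filterByExpr, and those more than 2-fold higher from 355 to 773 and 601, with more genes tested. Of 84 list genes 44 were called, and 32 to 52 with 1 library left out, beside 23.5% lower and 23.0% higher of all tested genes. These list genes are the tested signalling partners, rearrangement enzymes, locus regulators, STAT5 targets, V, D and J segments and locus flanks. Lists of cell markers are not among them.

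The replicate numbers are not stated to pair the samples. Same-numbered libraries correlated at 0.272, -0.115, 0.202 and -0.182 in their deviations from the group means. So few values cannot tell whether libraries of the same number share a donor or a batch. With the replicate block 4867 genes and 38 list genes were called. Of 4 GC7 libraries 2 correlated best with their own number. Depth limits Tcrg-C3 and the gamma V and J segments, which rest on few counts in GC7.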
